A study of Mus musculus with 10 samples.

Results

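The values of 9 genes for inhibitory receptors of B cells, an intracellular relative and their phosphatase were followed, a list of named genes that was drawn up with earlier results of these data known: *Siglecg*, *Cd22*, *Cd72*, *Fcgr2b*, *Fcrla*, *Lair1*, *Pecam1*, *Ptpn6* and *Btla*. Each of the 9 was found among the 25579 genes of the expression files, and each was among the 13436 genes tested.

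Inhibitory receptors set the threshold at which a B cell responds through its antigen receptor. Most carry immunoreceptor tyrosine-based inhibitory motifs (ITIMs) in the cytoplasmic tail, which the kinase *Lyn* phosphorylates and which then recruit the phosphatase SHP-1, encoded by *Ptpn6*, or related phosphatases. Pax5 is the transcription factor that commits lymphoid progenitors to the B cell lineage, and *Siglecg*, *Cd22* and *Cd72* encode receptors that are placed on the cell as B cells develop.

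The RNA-seq data came from cells sorted ex vivo from bone marrow of C57BL/6 mice, with 2 libraries for each of 4 genotypes. *Pax5*+/+ pro-B cells carry the normal gene and *Pax5*+/- pro-B cells 1 null allele, and *Pax5*R31Q/- pro-B cells carry the null allele opposite an allele for the Pax5-R31Q protein, which CRISPR/Cas9 editing had introduced together with silent changes. The *Pax5*-/- cells, which the labels call progenitors, came from *Pax5*(fl/fl) Vav-Cre mice, in which the Cre is active throughout hematopoiesis. For Pax5 binding, 1 ChIP-seq peak list each was deposited for short-term cultured pro-B cells labelled *Rag2*(-/-), here called *Pax5*+/+, and for cultured pro-B cells with the genotype *Pax5*(R31Q/-), whose description names *Rag2* in place of Pax5. An effect of *Rag2* on the peaks therefore cannot be told apart from that of the *Pax5* genotype. The antibody recognizes the paired domain, in which the substituted residue lies.

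*Pax5* itself had 418 and 444 TPM (the usual abundance unit, in which reads are divided by gene length and scaled to the library total) in *Pax5*+/+ cells, 272 and 287 in *Pax5*+/- cells, 306 and 293 in *Pax5*R31Q/- cells, and 1242 and 1409 in *Pax5*-/- cells. The exons behind the *Pax5* reads are not resolved by gene-level values, which therefore do not check the label of the *Pax5*-/- libraries. The 14 pro-B markers summed to between 14680 and 18156 TPM in the libraries of the first 3 genotypes and to 8668 and 9141 TPM in the *Pax5*-/- libraries. Depth ranged from 21625407 to 34488454 reads on genes per library.

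The stretches of genome under the Pax5 peaks discussed further on are printed here from the GRCm38/mm10 reference (RefSeq, assembly GRCm38.p6), 5′ to 3′ on the strand of the gene, with annotated exons left out. Capitals mark the best match of each stretch to the 15-position Pax5 consensus. Peaks present in the *Pax5*+/+ list and met by no peak of the *Pax5*R31Q/- list lay at the starts of *Siglecg* (chr7:43407930-43408191, plus strand) and *Fcgr2b* (chr1:170976072-170976254, minus strand) and upstream of *Cd72* (chr4:43457050-43457349, minus strand).
Siglecg start: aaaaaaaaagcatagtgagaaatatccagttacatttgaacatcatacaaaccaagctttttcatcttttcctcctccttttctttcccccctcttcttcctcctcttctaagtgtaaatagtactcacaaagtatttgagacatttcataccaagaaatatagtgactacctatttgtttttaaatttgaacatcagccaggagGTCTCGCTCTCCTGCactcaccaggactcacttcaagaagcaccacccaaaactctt
Fcgr2b start: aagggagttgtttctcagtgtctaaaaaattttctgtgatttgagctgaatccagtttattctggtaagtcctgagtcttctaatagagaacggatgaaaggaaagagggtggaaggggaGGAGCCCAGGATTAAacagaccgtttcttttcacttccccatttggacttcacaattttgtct
Cd72 upstream: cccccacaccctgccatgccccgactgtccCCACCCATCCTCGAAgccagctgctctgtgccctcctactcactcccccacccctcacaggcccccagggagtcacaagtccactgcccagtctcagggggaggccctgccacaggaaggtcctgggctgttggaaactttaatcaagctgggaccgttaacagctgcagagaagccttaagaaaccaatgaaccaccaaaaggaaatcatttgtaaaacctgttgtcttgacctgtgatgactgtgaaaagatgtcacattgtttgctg

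Peaks of both lists lay at a start of *Cd22* (chr7:30879029-30879176, minus strand) and upstream of the start of *Fcrla* (chr1:170928423-170928722, minus strand), which is at position 170927583, and are shown for comparison.
Cd22 start: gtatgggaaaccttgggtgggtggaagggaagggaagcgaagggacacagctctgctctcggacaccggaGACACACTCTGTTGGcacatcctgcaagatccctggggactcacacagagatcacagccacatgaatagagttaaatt
Fcrla upstream: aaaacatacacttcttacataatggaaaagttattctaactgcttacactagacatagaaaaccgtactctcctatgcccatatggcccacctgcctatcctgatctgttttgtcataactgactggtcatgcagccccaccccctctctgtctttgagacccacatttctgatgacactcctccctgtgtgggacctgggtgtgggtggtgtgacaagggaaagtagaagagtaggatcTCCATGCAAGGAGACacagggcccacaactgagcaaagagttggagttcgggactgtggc

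The capitals differed from the consensus at 4 positions for *Siglecg*, at 6 for *Fcgr2b*, at 5 for the *Cd72* upstream peak, at 5 for *Cd22* and at 6 for *Fcrla*. A match with up to 4 mismatches was found in 25.3% of the 300-base windows centered on *Pax5*+/+ peaks, and a match with up to 5 in 92.5%, so these matches do not separate the printed peaks from others. GCGTGAC, the last 7 positions of the consensus, was searched on both strands and was present in 3.78% of the *Pax5*+/+ windows. Of the 23 windows around the members' *Pax5*+/+ peaks it was present in 1, a peak at the start of *Tesk1* near *Cd72*. The shared peak at a *Ptpn6* start also held GCGTGAC, outside the window of the *Pax5*+/+ peak and inside that of the *Pax5*R31Q/- peak. The RefSeq promoter table (250 bases before to 50 after a start, GRCm38.p6) held 9 windows for 8 of the 9 genes, of which 0 contained GCGTGAC, against 2.09% of all 32851 windows.

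In *Pax5*+/+ pro-B cells, the 9 genes spanned a wide range of expression. On the TPM scale, which is per gene length, *Cd72* had the highest mean level (297 ± 59.3 TPM, SD, n = 2), followed by *Siglecg* (245 ± 42.7), *Ptpn6* (242 ± 5.5) and *Fcrla* (211 ± 85.4). Both *Cd72* libraries lay above both *Ptpn6* libraries, while the other pairs among these 4 genes overlapped in level, so their order is not resolved. *Pecam1* (115 ± 20.5 TPM), *Cd22* (56.5 ± 3.78 TPM) and *Fcgr2b* (29.8 ± 5.51 TPM) came next and did not overlap with one another, and *Btla* (5.30 ± 1.17 TPM) and *Lair1* (2.23 ± 0.0859 TPM) were the lowest. In bulk RNA, fewer cells with a transcript and less transcript per cell cannot be told apart.

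**Figure D1:**
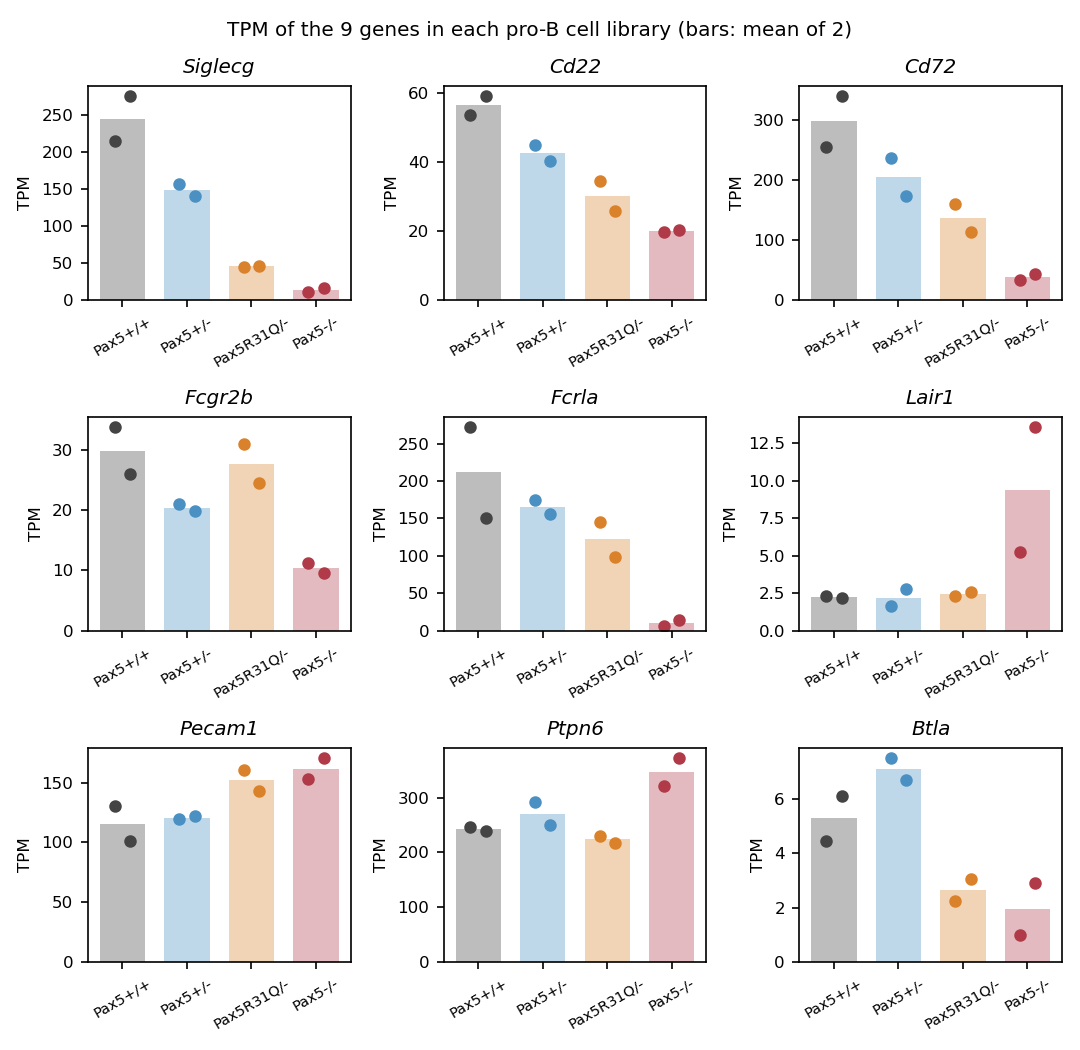
TPM of each of the 9 genes (vertical axes, from 0) in the 2 libraries of each genotype (points), with bars at the mean. Siglecg, Cd22 and Cd72 step down from Pax5+/+ through Pax5+/- and Pax5R31Q/- to Pax5-/-. The means of Fcrla have the same order, but its Pax5+/+ and Pax5+/- libraries overlap. Lair1, Pecam1 and Ptpn6 are highest on average in Pax5-/- cells.

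To ask which of these genes differ when the only Pax5 protein is Pax5-R31Q, *Pax5*R31Q/- cells, which differ from *Pax5*+/+ cells both in the residue and in having 1 null allele, were compared with *Pax5*+/+ cells by limma after a log2(TPM + 1) transformation, under which differences of genes with few transcripts appear too small. *Siglecg*, *Cd22* and *Cd72* were lower in *Pax5*R31Q/- cells at an adjusted p-value under 0.05 (3 of 9), beside 2.55% of all tested genes called lower. None of the 9 was called higher by limma or by voom on recovered reads (1.62% of all tested genes), and at an unadjusted p-value under 0.05 limma gave 5 of the 9, of which 4 were lower, beside 2521 of the 13436 genes tested. Marker genes also moved between these genotypes: the 14 myeloid markers summed to 421 to 638 TPM in *Pax5*+/+ libraries and to 975 to 1027 in *Pax5*R31Q/- libraries, and the 10 markers of later B cells to 416 to 479 and to 798 to 823 TPM. *Ms4a1*, which marks later B cells, had 14.0 and 25.8 TPM in *Pax5*+/+ and 1.18 and 4.83 in *Pax5*R31Q/- libraries, and *Kit*, which marks pro-B cells, 62.8 and 54.7 against 84.2 and 96.7. The part of these shifts in the differences of *Siglecg*, *Cd22* and *Cd72* was not tested.

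*Siglecg* encodes a sialic acid-binding receptor that restrains antigen receptor signaling, best known from B-1 cells. It had 215 and 275 TPM in *Pax5*+/+ cells, 156 and 141 in *Pax5*+/- cells, 44.2 and 46.3 in *Pax5*R31Q/- cells, and 10.6 and 15.9 in *Pax5*-/- cells. The libraries of the 4 genotypes did not overlap, and each *Pax5*R31Q/- library lay between those of *Pax5*+/- and *Pax5*-/- cells. The difference of *Pax5*R31Q/- from *Pax5*+/+ cells was -2.40 ± 0.20 (SE) on the log2(TPM + 1) scale, or 5.28-fold lower (limma adjusted p = 0.00126). *Siglecg* was called in the 7 other settings of the analysis and in all 8 fits that left out 1 library, with adjusted p-values up to 0.0305 in the latter.

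*Cd22* encodes another sialic acid-binding receptor of B cells, whose tail carries several ITIMs. It had 53.9 and 59.2 TPM in *Pax5*+/+ cells, 45.0 and 40.4 in *Pax5*+/- cells, 34.7 and 25.9 in *Pax5*R31Q/- cells, and 19.6 and 20.2 in *Pax5*-/- cells. Again the libraries of the genotypes did not overlap, and the lowest *Pax5*R31Q/- library was close to the *Pax5*-/- libraries. The *Pax5*R31Q/- cells were 1.86-fold below *Pax5*+/+ cells (log2 difference -0.89 ± 0.16 SE, limma adjusted p = 0.0238).

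*Cd72* encodes a C-type lectin-like receptor that recruits SHP-1. It had 255 and 339 TPM in *Pax5*+/+ cells, 236 and 172 in *Pax5*+/- cells, 159 and 113 in *Pax5*R31Q/- cells, and 33.4 and 42.4 in *Pax5*-/- cells. The libraries of the genotypes did not overlap, although those of *Pax5*+/- cells lay close to the *Pax5*+/+ library above and the *Pax5*R31Q/- library below them. *Pax5*R31Q/- cells were 2.18-fold below *Pax5*+/+ cells (log2 difference -1.12 ± 0.24 SE, limma adjusted p = 0.0436). *Cd72* overlaps *Tesk1* on the opposite strand, and reads of both cannot be separated where the counting ignored strand. The calls of *Cd22* and *Cd72* rested on the full set of libraries: *Cd72* was called in 0 of the 8 fits without 1 library (adjusted p 0.0542 to 0.307), and *Cd22* was called only in the 2 fits without a *Pax5*-/- library (0.0343 to 0.18 over all 8). *Cd72* also missed the threshold with no filter on low TPM (adjusted p = 0.0963) and without the variance trend (0.0573).

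*Fcgr2b*, the inhibitory receptor for IgG, differed from these in its order of levels. It had 33.7 and 25.9 TPM in *Pax5*+/+ cells, 21.0 and 19.8 in *Pax5*+/- cells, 30.9 and 24.4 in *Pax5*R31Q/- cells, and 11.2 and 9.57 in *Pax5*-/- cells. The *Pax5*R31Q/- and *Pax5*+/+ libraries overlapped, and those of *Pax5*-/- cells lay below all others. The log2 difference of *Pax5*R31Q/- from *Pax5*+/+ cells was -0.10 with a 95% interval of -0.53 to 0.32 (limma adjusted p = 0.781), and its sign turned to 0.08 without the first *Pax5*+/+ library and to 0.06 without the second *Pax5*R31Q/- library.

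*Fcrla* encodes an Fc receptor-like protein that stays inside the B cell and binds immunoglobulin, without the ITIMs of the surface receptors. It had 272 and 151 TPM in *Pax5*+/+ cells, 175 and 156 in *Pax5*+/- cells, 146 and 99.0 in *Pax5*R31Q/- cells, and 6.06 and 15 in *Pax5*-/- cells. The *Pax5*+/+ libraries lay far apart and enclosed those of *Pax5*+/- cells, and the higher *Pax5*R31Q/- library lay just below them. Its difference between *Pax5*R31Q/- and *Pax5*+/+ cells (-0.75 ± 0.41 SE, limma adjusted p = 0.369) did not pass the test. *Fcrla* overlaps *Gm2962* on its own strand, so its reads may be shared.

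*Btla*, a receptor for the TNF receptor family member HVEM, had 4.46 and 6.13 TPM in *Pax5*+/+ cells, 7.51 and 6.71 in *Pax5*+/- cells, 2.24 and 3.07 in *Pax5*R31Q/- cells, and 0.986 and 2.91 in *Pax5*-/- cells. The *Pax5*+/- libraries were the highest, and those of *Pax5*R31Q/- and *Pax5*-/- cells overlapped. The *Pax5*R31Q/- minus *Pax5*+/+ difference was -0.78 ± 0.32 SE (limma adjusted p = 0.249). *Ptpn6*, *Pecam1* and *Lair1* also missed the threshold in this comparison, with log2 differences of -0.12, 0.40 and 0.10 and limma adjusted p-values of 0.626, 0.19 and 0.911.

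*Pax5*+/- cells served to ask how much of the difference a single functional allele leaves. None of the 9 genes was called in either direction by limma or by voom, and of all tested genes limma called 0.0223% lower and 0.0% higher. At an unadjusted p-value under 0.05, limma gave 3 of the 9, *Siglecg*, *Cd22* and *Fcgr2b*, each lower in *Pax5*+/- cells, beside 814 of the 13436 genes tested, and voom gave 4 of the 9, beside 889 of 13370. The log2 difference was -0.71 ± 0.20 SE for *Siglecg* (limma adjusted p = 0.477), -0.40 ± 0.16 SE for *Cd22* (0.755) and -0.52 ± 0.18 SE for *Fcgr2b* (0.665). Their levels stood at 60.6%, 75.5% and 68.3% of the *Pax5*+/+ mean. This comparison and the others against *Pax5*+/+ cells share the same 2 *Pax5*+/+ libraries.

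The direct comparison of *Pax5*R31Q/- with *Pax5*+/- cells, in which each cell type has 1 null allele, called *Siglecg* lower (1 of 9; 0.35% of all tested genes were lower and 0.268% higher). The log2 difference was -1.69 ± 0.20 SE, or 3.23-fold (limma adjusted p = 0.0205). *Siglecg* missed the threshold with no filter on low TPM (adjusted p = 0.0582) and without any 1 of the *Pax5*+/+, *Pax5*+/- or *Pax5*R31Q/- libraries (0.0504 to 0.224). *Btla* was 2.23-fold lower (log2 difference -1.16 ± 0.32 SE) at a limma adjusted p of 0.251, and *Cd22* and *Cd72* were 1.41-fold and 1.5-fold lower at 0.344 and 0.518. *Fcgr2b* was 1.33-fold higher in *Pax5*R31Q/- cells (adjusted p = 0.586).

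**Figure D2:**
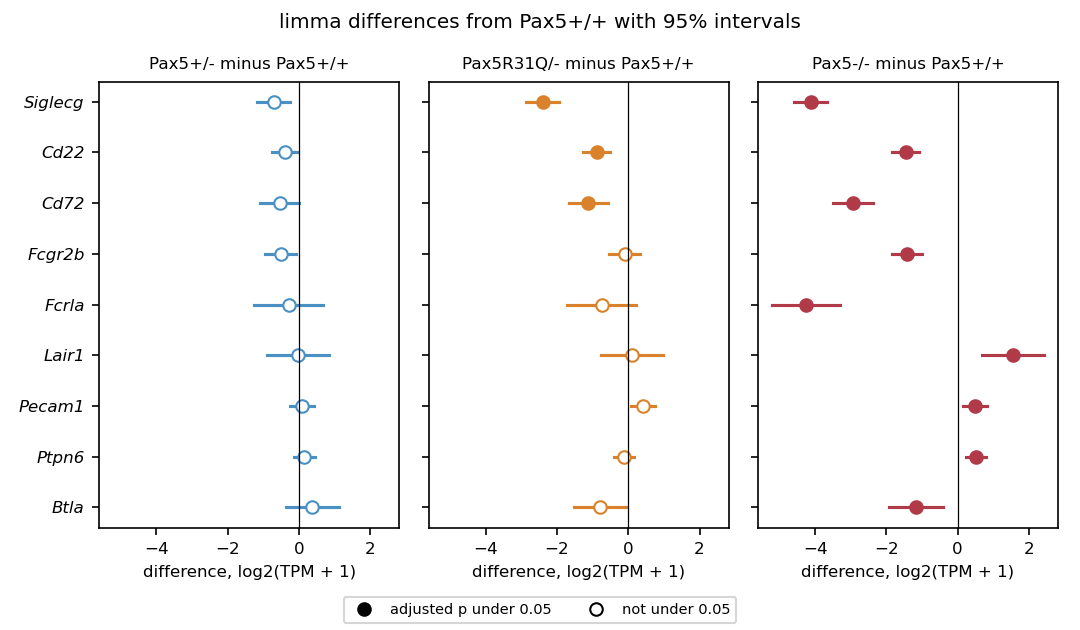
Differences from Pax5+/+ cells on the log2(TPM + 1) scale (horizontal axes) for Pax5+/-, Pax5R31Q/- and Pax5-/- cells, with 95% intervals from limma (lines) and filled points at an adjusted p under 0.05. No member is filled for Pax5+/-, 3 are filled for Pax5R31Q/-, and all 9 for Pax5-/-, where 6 lie below 0 and 3 above.

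In *Pax5*-/- cells, 6 of the 9 genes were lower and 3 were higher than in *Pax5*+/+ cells, beside 19.7% of all tested genes called lower and 16.2% called higher. The median over all tested genes was itself -0.11 on the log2 scale, and moved to -0.02 under median-ratio scaling. *Fcrla* fell from 211 to 10.6 mean TPM (log2 difference -4.26 ± 0.41 SE, limma adjusted p = 0.000244). *Siglecg* was 17.5-fold lower (-4.13 ± 0.20 SE, 1.31e-05), and *Cd72* 7.63-fold lower (-2.93 ± 0.24 SE, 0.000103). *Cd22* and *Fcgr2b* fell to similar shares of the *Pax5*+/+ mean, 35.1% and 34.8% (limma adjusted p = 0.000413 and 0.000881). *Btla* had a log2 difference of -1.16 (limma adjusted p = 0.0264). The *Btla* call was lost with no filter on low TPM (0.0617), with only these 2 genotypes in the fit (0.0782), and without either *Pax5*+/+ library, the first *Pax5*R31Q/- library or the first *Pax5*-/- library (adjusted p up to 0.139).

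The 3 genes that were higher in *Pax5*-/- cells are not restricted to B cells. *Ptpn6*, the gene of SHP-1, which hematopoietic cells express widely, had 246 and 238 TPM in *Pax5*+/+ cells, 291 and 250 in *Pax5*+/- cells, 230 and 218 in *Pax5*R31Q/- cells, and 322 and 372 in *Pax5*-/- cells. It was 1.43-fold higher in *Pax5*-/- than in *Pax5*+/+ cells (limma adjusted p = 0.0146; 0.0576 without the second *Pax5*+/+ library and 0.0738 with only these 2 genotypes in the fit). *Pecam1* encodes an adhesion receptor with ITIMs, found on endothelium, platelets and leukocytes. It had 130.0 and 101 TPM in *Pax5*+/+ cells, 119.6 and 122 in *Pax5*+/- cells, 161 and 143 in *Pax5*R31Q/- cells, and 153 and 170.4 in *Pax5*-/- cells. The *Pax5*R31Q/- and *Pax5*-/- libraries overlapped each other and lay above those of the other two genotypes. *Pecam1* was 1.40-fold higher in *Pax5*-/- than in *Pax5*+/+ cells (adjusted p = 0.0325), a call that remained in 1 of the 8 fits without 1 library, the one without the first *Pax5*+/+ library (0.0143 to 0.128 over the 8). It was also lost with no variance trend (0.0516) and with only these 2 genotypes (0.118).

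*Lair1*, an ITIM receptor for collagen, had 2.29 and 2.17 TPM in *Pax5*+/+ cells, 1.64 and 2.78 in *Pax5*+/- cells, 2.33 and 2.59 in *Pax5*R31Q/- cells, and 5.24 and 13.6 in *Pax5*-/- cells. Both *Pax5*-/- libraries lay above all others and far from each other. The difference from *Pax5*+/+ cells was 1.56 ± 0.38 SE (2.95-fold on the TPM + 1 scale, limma adjusted p = 0.0152), and it missed the threshold without either *Pax5*+/+ library (0.069 and 0.0768). In mouse, *Lair1* is also a marker of plasmacytoid dendritic cells. The other 7 markers of these cells summed to 568 to 610 TPM in *Pax5*+/+ libraries, 743 to 945 in *Pax5*+/- libraries, 717 to 732 in *Pax5*R31Q/- libraries and 3513 to 4280 in *Pax5*-/- libraries. Most of that sum was *Ly6d*, which lymphoid progenitors also express, and the more specific *Siglech* had 11.7 and 3.37 TPM in *Pax5*+/+ cells against 54.4 and 158 in *Pax5*-/- cells. The 14 myeloid markers summed to 638 and 421 TPM in *Pax5*+/+ libraries and to 2263 and 375 in *Pax5*-/- libraries. The 9 endothelial and platelet markers summed to 11.0 to 18.4 TPM in *Pax5*+/+ and 19.9 to 28.5 TPM in *Pax5*-/- libraries. The highest of them in *Pax5*-/- libraries was *Cdh5* at a mean of 9.97 TPM, against 1.57 and 1.17 TPM in *Pax5*+/+ libraries. *Kdr* and *Emcn* were among those that went the other way, with *Kdr* at 2.76 and 2.55 TPM against 0.221 and 0.295 and *Emcn* at 2.02 and 3.20 against 0.614 and 0.436. The 10 T cell markers summed to 47.8 to 67.2 TPM in *Pax5*+/+ libraries and 122 to 219 TPM in *Pax5*-/- libraries, through *Trat1* (0 TPM in both *Pax5*+/+ libraries, 57.9 and 127 in *Pax5*-/- libraries), while *Cd3e*, *Cd3d* and *Cd3g* were under 1 TPM in every library. The 8 natural killer cell markers summed to 27.4 to 30.6 TPM in *Pax5*+/+ and 52.5 to 73.2 TPM in *Pax5*-/- libraries, with *Nkg7* at 6.45 and 6.34 TPM against 56.2 and 24.7. Other natural killer cell markers went the other way, with *Klrb1c* at 13.8 and 15.7 TPM against 6.17 and 6.35 and *Prf1* at 4.02 and 6.00 TPM against 1.70 and 1.21. The 7 erythroid markers went the other way, from 78.9 to 132 TPM in *Pax5*+/+ libraries to 13.8 to 37.0 TPM in *Pax5*-/- libraries. The 10 markers of later B cells summed to 416 to 479 TPM in *Pax5*+/+ and 973 to 1374 TPM in *Pax5*-/- libraries, while *Ms4a1* had 0.234 and 0.19 TPM in the latter. What part the other cell types had in the levels of *Lair1*, *Ptpn6* and *Pecam1* was not tested.

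**Figure D3:**
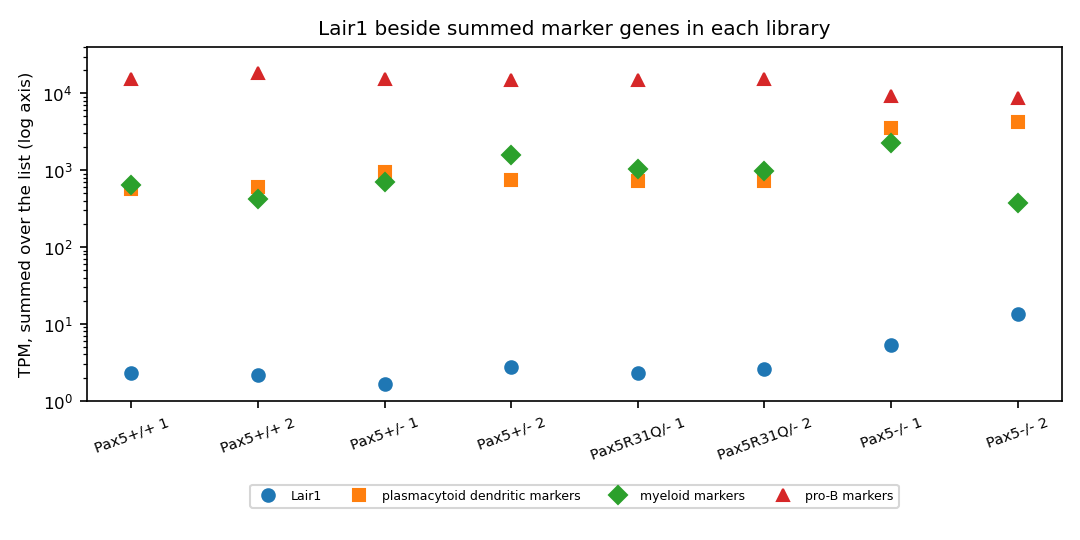
TPM of Lair1 and summed TPM of marker genes (vertical log axis) in each of the 8 libraries (horizontal axis). Lair1 and the plasmacytoid dendritic cell markers, from which Lair1 was left out, are highest in the 2 Pax5-/- libraries, while the myeloid markers are high in the first of them and low in the second.

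*Pax5*R31Q/- cells were then compared with *Pax5*-/- cells, to see which genes keep some of their expression with the Pax5-R31Q protein. Of the 9 genes, 5 were higher in *Pax5*R31Q/- cells and 2 were lower, beside 19.9% and 14.7% of all tested genes, whose median of 0.13 was removed by median-ratio scaling. *Fcrla* was 11.4-fold higher (log2 difference 3.51 ± 0.41 SE, limma adjusted p = 0.000787), *Cd72* 3.5-fold (adjusted p = 0.0013), *Siglecg* 3.31-fold (0.000712) and *Fcgr2b* 2.51-fold (0.00163). *Cd22* was 1.48-fold higher (adjusted p = 0.0289), a call lost under median-ratio scaling (0.0611), quantile normalization (0.0677), with only these 2 genotypes in the fit (0.0863), and without the first *Pax5*R31Q/-, the first *Pax5*-/- or either *Pax5*+/- library. *Ptpn6* was 1.55-fold lower (0.00725; 0.0619 without the second *Pax5*R31Q/- library). *Lair1* was 2.76-fold lower (0.0214), a call lost without either *Pax5*R31Q/- library (0.0938 and 0.118), with no filter on low TPM (0.0524) and with only these 2 genotypes (0.0672). *Pecam1* and *Btla* overlapped between the genotypes and did not pass the test (adjusted p = 0.652 and 0.38). As a share of the *Pax5*+/+ mean, *Pax5*R31Q/- cells kept 92.7% of *Fcgr2b*, 57.9% of *Fcrla*, 53.5% of *Cd22*, 45.9% of *Cd72* and 18.5% of *Siglecg*, against 34.8%, 4.99%, 35.1%, 12.8% and 5.40% in *Pax5*-/- cells.

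Other genes of the pathway gave a background to these values. Of 26 tested genes among 30 further inhibitory receptors, *Cd244a* and *Milr1* were higher and 0 lower in *Pax5*R31Q/- than in *Pax5*+/+ cells, with a median log2 difference of 0.07 beside -0.75 for the 9 genes and 0.04 for all tested genes, of which 1.62% were called higher and 2.55% lower. *Cd244a*, a receptor of the SLAM family, rose from 4.95 ± 1.03 to 23.2 ± 2.81 TPM (limma adjusted p = 0.0026), and *Milr1*, an immunoglobulin-like receptor known from mast cells, from 20.5 ± 2.5 to 42.3 ± 0.725 TPM (0.0242). In *Pax5*-/- cells, in which 19.7% of all tested genes were called lower and 16.2% higher, 14 of the 26 were higher and 3 lower than in *Pax5*+/+ cells, with a median of 0.88 against -1.43 for the 9 genes. *Havcr2*, the gene of TIM-3, rose from 0.127 ± 0.0299 to 13.1 ± 0.397 TPM (1.4e-05), and *Clec12a*, a lectin-like receptor of myeloid cells, from 5.33 ± 0.455 to 51.9 ± 20.8 TPM (0.00015). *Slamf6* fell from 176 ± 26.4 to 17.4 ± 6.22 TPM (4.92e-05).

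Among 20 effectors and adaptors that act with ITIMs, 2 were called lower in *Pax5*R31Q/- than in *Pax5*+/+ cells and 0 higher (2.55% and 1.62% of all tested genes). *Lyn*, the kinase that phosphorylates the motifs, fell from 121 ± 3.78 to 76.4 ± 8.68 TPM (limma adjusted p = 0.0229), and *Inppl1*, the gene of the lipid phosphatase SHIP2, from 14.9 ± 0.908 to 7.33 ± 1.09 TPM (0.0323). In *Pax5*-/- cells, 7 of the 20 were lower and 2 higher (beside the same 19.7% and 16.2% of all tested genes), with *Gab1* at a log2 difference of -1.97 and the adaptor *Dok2* at 2.15. Of 15 ligands and enzymes of ligand synthesis, 0 were called in *Pax5*R31Q/- cells, and 7 were higher and 1 lower in *Pax5*-/- cells (16.2% and 19.7% of all tested genes). *Cmah*, the enzyme that makes the sialic acid form preferred by mouse CD22, rose from 6.83 ± 0.827 to 56.3 ± 6.29 TPM in *Pax5*-/- cells (limma adjusted p = 2.4e-05), and *Cd38*, a binding partner of PECAM-1, fell from 20.8 ± 5.28 to 3.15 ± 1.32 TPM (0.000443). On the activating side, 14 of 15 genes were tested, of which limma called 3 in *Pax5*R31Q/- against *Pax5*+/+ cells (2 lower, 1 higher; 2.55% and 1.62% of all tested genes). *Pik3ap1*, the gene of an adaptor for phosphoinositide 3-kinase, fell from 484 ± 18.7 to 129 ± 19.3 TPM (limma adjusted p = 0.0011), and *Plcg2*, the gene of a phospholipase, rose from 276 ± 3.47 to 401 ± 11.7 TPM (0.034). In *Pax5*-/- cells, 8 of these 14 were lower and 2 higher (19.7% and 16.2% of all tested genes), with *Cd79a* at a log2 difference of -2.76. Between *Pax5*R31Q/- and *Pax5*-/- cells, 2 of the 26 further inhibitory receptors were higher and 11 lower in *Pax5*R31Q/- cells, as were 5 and 2 of the 20 effectors, 1 and 6 of the 15 ligands, and 6 and 2 of the 14 activating genes (19.9% and 14.7% of all tested genes). Between *Pax5*R31Q/- and *Pax5*+/- cells, *Cd244a* was called higher (limma adjusted p = 0.0285) and *Pik3ap1* lower (0.0121), and 0 other genes of these lists. In *Pax5*+/- cells, 0 genes of these 4 lists were called by limma.

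Over the 8 libraries, the genes whose log2(TPM + 1) values followed those of the members most closely were ranked among 10789 genes by Pearson's r, as a description, since the libraries share genotype. For *Siglecg* these were *Mapk11* (r = 0.994) and *Mybpc2* (0.994), and for *Cd22* *H2-Ob* (0.995) and *Irgq* (0.991). *Prkd2* (0.996) and *Zfp354b* (0.995) came first for *Cd72*, *Fndc9* (0.997) and *Glyr1* (0.996) for *Fcrla*, and *Gch1* (0.986) and *Aldh1b1* (0.97) for *Fcgr2b*. *H2-Ob*, a component of the MHC class II pathway of B cells, had mean levels of 158, 103, 63.4 and 39.3 TPM in *Pax5*+/+, *Pax5*+/-, *Pax5*R31Q/- and *Pax5*-/- cells, in the order seen for *Cd22*. *Gch1* had 7.37, 4.90, 6.41 and 1.75 TPM, with the lower value in *Pax5*+/- than in *Pax5*R31Q/- cells that *Fcgr2b* also had.

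Pax5 peaks were then examined in and within 10 kb of the 9 genes. The *Pax5*+/+ list had 23 such peaks of 41983, and the *Pax5*R31Q/- list 16 of 18821. Of the 23, 8 were met by no peak of the *Pax5*R31Q/- list, against 62.5% of the whole *Pax5*+/+ list, and 1 *Pax5*R31Q/- peak, 19788 bp upstream of the *Lair1* start, was met by no *Pax5*+/+ peak. With 1 library per genotype these are descriptions without a test, and a peak missing from the shorter list does not show that binding was absent.

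A *Pax5*+/+ peak lay within 1 kb of an annotated start in 8 of the 9 genes, all but *Pecam1*, and this was so for 66.8% of 12893 tested genes with an annotated start. It had no counterpart in the *Pax5*R31Q/- list at 3 of the 8, *Siglecg*, *Fcgr2b* and *Btla*, beside 3.93% of the 8616 tested genes with such a peak. With a window of 0.2 kb, 7 genes had a peak at a start and the number without a counterpart was again 3. The *Siglecg* peak (chr7:43407930-43408569, plus strand gene) spanned the start and was 640 bp wide, above the upper quartile of 425 bp of the *Pax5*+/+ list. The *Fcgr2b* peak (chr1:170976007-170976254) and the *Btla* peak (chr16:45223972-45224240) were 248 and 269 bp wide, below the lower quartile of 300 bp. Over the whole *Pax5*+/+ list, unmatched peaks had a median width of 316 bp and shared peaks of 468 bp.

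These 3 genes differed in expression. *Siglecg*, which had a single *Pax5*+/+ peak and none in the *Pax5*R31Q/- list, was called lower in *Pax5*R31Q/- cells. *Fcgr2b* likewise had 1 *Pax5*+/+ peak and 0 *Pax5*R31Q/- peaks, and its transcript levels overlapped between the genotypes. *Btla* had 1 and 0 peaks and a log2 difference of -0.78 that did not pass the test. Over all tested genes, 31 of the 339 that had a *Pax5*+/+ peak at a start and kept none were called lower in *Pax5*R31Q/- cells (9.14%), against 177 of the 8277 that kept at least 1 (2.14%) and 2.92% of the 4277 without a *Pax5*+/+ peak at a start. Called higher were 2.06%, 1.06% and 2.5% of these groups, and the median log2 differences were -0.0045, 0.05 and 0.03.

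**Figure D4:**
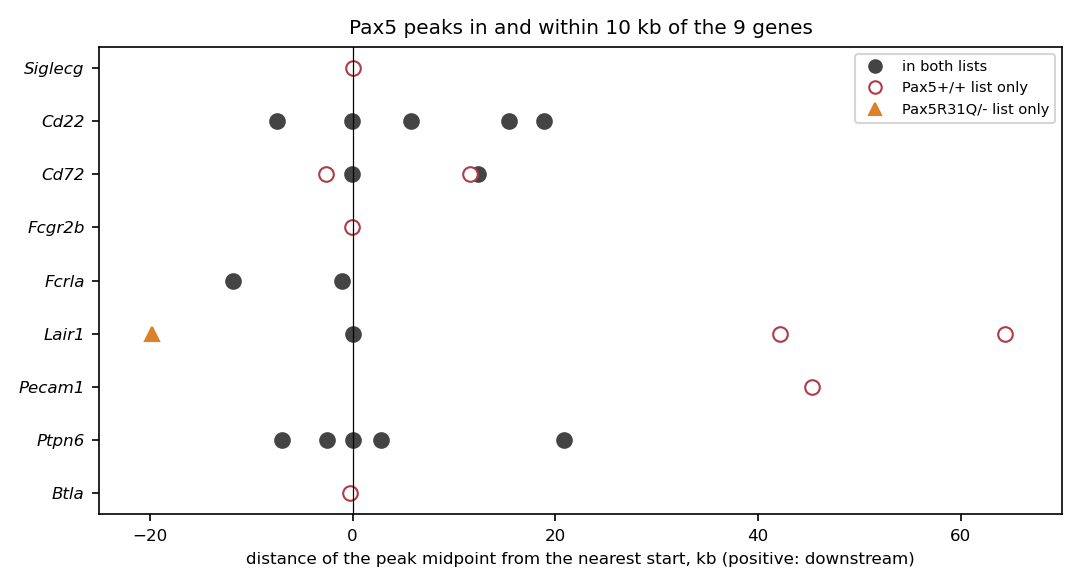
Distance of each peak midpoint from the nearest annotated start of its gene (horizontal axis, kb, positive in the direction of transcription) for the 9 genes. Filled circles are Pax5+/+ peaks met by a Pax5R31Q/- peak, open circles are in the Pax5+/+ list only, and the triangle at Lair1 is the peak in the Pax5R31Q/- list only; the peaks at the starts of Siglecg, Fcgr2b and Btla are open.

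*Cd22* and *Cd72*, which were also called lower in *Pax5*R31Q/- cells, had a peak of both lists at the start. All 5 *Pax5*+/+ peaks of *Cd22* were shared: the start peak (chr7:30878858-30879357), 1 upstream, 1 in an exon, and 2 beyond the 3′ end toward *Ffar1*. At *Cd72*, the start peak (chr4:43454526-43454905) was shared. The peak 2675 bp upstream (chr4:43457050-43457553) was in the *Pax5*+/+ list only. Of the 2 further peaks beyond the 3′ end of *Cd72*, the one at the *Tesk1* start was shared and the one 760 bp from it was not, and they cannot be assigned to either gene.

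*Fcrla* had 2 shared peaks, the first with its midpoint 1096 bp and the second 11828 bp upstream of its start. *Fcrla* and *Fcgr2b* are neighbors on chromosome 1, and *Siglecg*, *Cd22* and *Lair1* lie apart on chromosome 7. All 5 peaks of *Ptpn6* were shared, of which 1 lay at a *Ptpn6* start and 1 in an intron, and those outside the gene lay at or near *Phb2*, *Rnu7* and *Atn1*. *Lair1* kept its start peak (chr7:4063054-4063320), and its 2 other *Pax5*+/+ peaks, 1 intronic and 1 beyond the 3′ end, consisted wholly of repeat-masked sequence (100%) and were not in the *Pax5*R31Q/- list. The single peak of *Pecam1* (chr11:106669738-106670189) lay in an intron, 45318 bp downstream of the start, and was in the *Pax5*+/+ list only, while the *Pecam1* transcript had 101 to 130.0 TPM in *Pax5*+/+ cells and 143 to 161 TPM in *Pax5*R31Q/- cells.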

How the data were processed

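RNA-seq values were taken as deposited. The authors removed ribosomal reads, aligned the reads to GRCm38/mm10 with STAR 2.4.2, used featureCounts to assign reads that mapped uniquely to RefSeq genes, and deposited TPM, which sums to 1000000 in each library. How reads were assigned to strands is not given in the sources used here. For the peaks, which the authors called with MACS after Bowtie2 2.3.5.1 alignment against an input library, the deposited score is 0 throughout, so only start and end were used. The input library was not analysed here. Samples were grouped by genotype from the labels, which do not say whether the 2 libraries of a genotype came from separate mice, so p-values measure the spread between these libraries, which may be technical.

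The 9 genes, the other gene lists and the rule for named genes were chosen with earlier results of these data known. The rule names the 9 genes, Pax5, up to 3 called genes of each other list per comparison, by size of the difference, and the 2 genes most correlated with each of the 9. Not every gene that the rule names is reported. *H2-Ob* and *Gch1* were singled out from these after their values were seen.

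Genes that reached 1 TPM in any library were tested with limma 3.58.1 (R 4.3.3) on log2(TPM + 1), with eBayes, a variance trend and all 4 genotypes in the fit, with Benjamini-Hochberg adjustment over all genes tested. The authors used DESeq2 on read counts. The smallest p-value of an exact two-sided permutation test of 2 libraries against 2 is 0.333. Whole reads were recovered from spacings between TPM values for all 18206 genes above 0 in at least 2 libraries (whole within 0.001 reads), against 7 of 300 genes after values had been moved, and served for depth and for limma-voom. The scripts were tested on simulated data. Alternatives were a pseudocount of 0.1, no filter, median-ratio and quantile scaling, no trend, voom, only the 2 genotypes compared, each library left out, other fold limits, and other peak distances and overlaps. Peaks were compared in Python 3.11.15 with pandas 2.3.3 and pysam 0.24.0, with an overlap of at least 1 bp counted as shared.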

Additional observations from a re-analysis of the deposited data

How the results depend on the processing

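Of 315 values recomputed under other settings, 301 kept their direction and side of the threshold, 13 became weaker and 1 stronger, and of 360 recomputed without 1 library, 311 kept both, 41 became weaker, 1 stronger and 7 turned in sign. No paired analysis was possible because the labels give no replicate numbers. Without 1 library, the members called lower numbered 1 to 2 for *Pax5*R31Q/- against *Pax5*+/+, 0 to 1 against *Pax5*+/- and 0 to 2 against *Pax5*-/-, and those called higher 0 to 2 for *Pax5*-/- against *Pax5*+/+. A limit of 3-fold and 5 TPM left 1 called lower in *Pax5*R31Q/- and 3 lower and 0 higher in *Pax5*-/- (against *Pax5*+/+), and 3 higher and 0 lower in *Pax5*R31Q/- against *Pax5*-/-. A limit of 2-fold left 1 higher in *Pax5*-/- against *Pax5*+/+ and 1 lower in *Pax5*R31Q/- against *Pax5*-/-. With only the 2 genotypes in the fit these were again 1 and 1, and 2 members were lower in *Pax5*R31Q/- than in *Pax5*+/- cells. With no filter 1 was lower in *Pax5*R31Q/- than in *Pax5*-/- cells and 0 than in *Pax5*+/- cells. The cause was not tested; fits without a library or of fewer genotypes have fewer degrees of freedom.

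Signs of log2 differences that turned without 1 library, none of them called with all libraries, were those of *Fcgr2b* (-0.29 to 0.0801, *Pax5*R31Q/- minus *Pax5*+/+), *Fcrla* (-0.72 to 0.13), *Lair1* (-0.29 to 0.23) and *Pecam1* (-0.11 to 0.25) in *Pax5*+/- minus *Pax5*+/+, *Btla* (-0.11 to 0.87, *Pax5*R31Q/- minus *Pax5*-/-) and *Lair1* (-0.13 to 0.39, *Pax5*R31Q/- minus *Pax5*+/-). Without the second *Pax5*-/- library, *Btla* was called higher in *Pax5*R31Q/- than in *Pax5*-/- cells (0.87). Over all genes, calls between *Pax5*R31Q/- and *Pax5*+/+ cells numbered 560, 860 by voom and 94 to 893 without 1 library. For *Pax5*+/- against *Pax5*+/+ they numbered 3, and 2 to 35 under other settings. Between *Pax5*-/- and *Pax5*+/+ cells they numbered 4829, and 2675 with only these genotypes, and between *Pax5*R31Q/- and *Pax5*-/- cells 4655, 3039 and, without 1 library, 2000 to 6536. Between *Pax5*R31Q/- and *Pax5*+/- cells they numbered 83, 37 with no filter, 193 by voom, 403 with only these genotypes and 0 to 116 without 1 library.

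Within 2.5 kb and 50 kb of the members, *Pax5*+/+ peaks numbered 15 and 42, of which 6 and 15 were unmatched, and unmatched *Pax5*R31Q/- peaks 0 and 4. With an overlap of 50% of both peaks required, 3 *Pax5*R31Q/- peaks were unmatched. Of the members' values, the one with the fewest reads was that of *Btla* in the first *Pax5*-/- library (32 reads), which also had the lowest depth.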
